A study of Mus musculus with 6 samples.

Results

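The 39 genes described here span the interferon response of mouse cells, from the receptor at the surface to the display of antigen on class I molecules. They come from a fixed list of symbols that holds 3 receptor subunits, 3 Janus kinases (JAKs), 2 signal transducers and activators of transcription (STATs), 5 interferon regulatory factors (IRFs), 3 cytosolic RNA sensors, 14 antiviral effectors, 3 feedback inhibitors and 6 antigen presentation genes. Of these, 38 had a row among the 18743 genes listed in any library, and Rnf213 was not analysed here. RNA was sequenced from oligodendrocyte progenitor cells (OPCs), the glial precursors of myelinating oligodendrocytes, grown from the cortices of wild-type C57BL/6 pups labelled as postnatal day 1 and isolated with magnetic beads against CD140 (PDGFRα). All samples were expanded for 3 days. Then 3 samples were given 50 µM hemin, the oxidised form of heme, and 3 were given 0.25% DMSO as vehicle, each for 12 h. The series title places the work in hemorrhagic stroke, where heme is released from extravasated blood. The labels do not tie replicates to separate cultures or litters, so all p-values rest on the spread among these 6 samples, and that spread may be technical only.

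Type I interferons bind the receptor pair Ifnar1 and Ifnar2, and interferon gamma binds Ifngr1 with Ifngr2. The receptors activate JAK kinases, which phosphorylate STAT proteins. Stat2 joins Irf9 in the complex ISGF3, which binds interferon-stimulated response elements (ISREs), while STAT dimers, those of Stat3 among them, bind gamma-activated sequences (GAS). The induced genes encode antiviral effectors, the class I antigen presentation machinery and inhibitors such as Usp18, Socs1 and Socs3 that switch the pathway off. Irf3 stands upstream, since it is activated by nucleic acid sensors and drives the first interferon transcripts. In brain white matter, glia respond to interferons, and class I molecules are normally kept low on neural cells.

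Summed expected counts lay between 6463460 and 6523639 in the hemin libraries and between 6339966 and 6390691 in the vehicle libraries. All 7 OPC markers were above 0 in all 6 libraries, and their summed level was 264 to 408 FPKM with hemin, against 1010 to 1230 FPKM with vehicle. FPKM is the authors' level per transcript length and library size. All 7 passed the test as lower with hemin. In such bulk samples, fewer cells of a type and less RNA per cell cannot be told apart. Over all genes, edgeR's quasi-likelihood test with Benjamini-Hochberg adjustment called 4077 of 12779 genes at an adjusted p below 0.05, which is 31.9% (2072 higher, 16.2%; 2005 lower, 15.7%). Scaling the libraries by their totals alone gave 1715 higher and 2582 lower, which puts 39.9% of the calls higher, against 50.8% in the fit described here.

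Promoters were searched for letters that match the sites of the pathway, and 5 are printed here. They were chosen because their genes were raised with hemin (Rsad2, B2m, Isg20), were lowered (Ifit2) or stayed near 0 although they carry ISRE cores (Isg15). Each is the 250 bases before the annotated start site, from RefSeq, build GRCm38.p6, read 5′ to 3′ on the gene's strand. The positions are chr12:26456453-26456702 (minus strand) for Rsad2, chr2:122147437-122147686 (plus strand) for B2m, chr7:78913174-78913423 (plus strand) for Isg20, chr19:34550444-34550693 (plus strand) for Ifit2 and chr4:156200819-156201068 (minus strand) for Isg15. Capitals mark the ISRE core GAAANNGAA on either strand in Rsad2, B2m and Isg15, and the GAS letters TTCNNNGAA, which read the same on both strands, in Isg20 and Ifit2.
Rsad2: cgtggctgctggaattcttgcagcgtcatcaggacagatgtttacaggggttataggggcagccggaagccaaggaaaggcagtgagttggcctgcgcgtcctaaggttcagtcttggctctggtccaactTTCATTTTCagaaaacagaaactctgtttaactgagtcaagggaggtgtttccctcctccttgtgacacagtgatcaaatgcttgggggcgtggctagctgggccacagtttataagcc
B2m: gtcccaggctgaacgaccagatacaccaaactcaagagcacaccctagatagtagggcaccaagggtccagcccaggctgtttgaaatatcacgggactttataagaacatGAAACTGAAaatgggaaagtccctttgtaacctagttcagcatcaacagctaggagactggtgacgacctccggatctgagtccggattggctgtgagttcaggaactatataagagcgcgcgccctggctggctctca
Isg20: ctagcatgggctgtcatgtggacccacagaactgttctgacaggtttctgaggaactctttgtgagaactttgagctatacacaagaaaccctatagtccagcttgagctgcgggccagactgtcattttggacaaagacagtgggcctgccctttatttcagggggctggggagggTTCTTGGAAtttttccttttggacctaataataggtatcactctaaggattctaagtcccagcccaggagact
Ifit2: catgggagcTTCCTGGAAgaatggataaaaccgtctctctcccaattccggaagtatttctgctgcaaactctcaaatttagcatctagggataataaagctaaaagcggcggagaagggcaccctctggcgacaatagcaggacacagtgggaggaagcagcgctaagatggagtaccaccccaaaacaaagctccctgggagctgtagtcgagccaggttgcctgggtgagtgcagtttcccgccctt
Isg15: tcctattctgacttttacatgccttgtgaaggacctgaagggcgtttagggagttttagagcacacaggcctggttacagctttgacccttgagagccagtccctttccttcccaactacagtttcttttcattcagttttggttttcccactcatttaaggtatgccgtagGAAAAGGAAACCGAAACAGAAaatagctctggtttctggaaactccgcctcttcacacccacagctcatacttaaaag

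The Isg15 promoter holds 3 ISRE cores that overlap by their ends, Rsad2 and B2m hold 1 each, and the windows of Isg20 and Ifit2 hold none. Over windows of 300 bases, which add 50 bases after the start site, the ISRE core was found in 13 of the 34 listed genes with a promoter entry (38.2%), against 9.76% of all 27025 genes. GAS letters were found in 9 of 34 (26.5%), against 9.55% of all genes. The core of the antioxidant response element, TGACNNNGC on either strand, through which NRF2 acts, was found in 5 of 34 (14.7%), against 14.0% of all genes. The ISRE core stood in 3 of the 8 genes with an entry that were called higher with hemin (Ddx58, Rsad2 and B2m), in 0 of the 4 called lower, in 6 of the 16 not called and in 4 of the 6 too low to test (Ifit1, Ifit3, Isg15 and Socs1). Antioxidant element cores stood in Isg20, Rsad2 and H2-K1 among the genes called higher, and in Isg20 only in the window of its second start site, which is not printed. A match describes letters in these windows and not binding.

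With hemin, 4 of the 6 class I antigen presentation genes and a few antiviral genes were higher. The share of genes called lower, given below, was no greater than that over all genes. Ifit2 was lower under all 13 alternative fits. Ifnar1, Jak2 and Stat3 were slightly lower, in calls that held under only 7, 9 and 7 of the 13. Of the 38 genes, 10 averaged under 1 FPKM in both groups. Of the 38 genes with a row, 31 passed the filter on low counts. The test called 13 of these 31 (41.9%, against 31.9% of all genes), 9 higher (29.0%, against 16.2%) and 4 lower (12.9%, against 15.7%). Among the 9, Isg20 and Usp18 passed that filter through the hemin group alone, which favours higher calls. Without the filter, their adjusted p-values in the same edgeR test were 0.000469 and 0.00284. The median log2 fold change of the 31 was 0.14, against 0.0022 over all genes tested. Among the called genes, the change was at least 2-fold for Irf3, Ifit2, Isg20, Rsad2, Usp18 and Tap1. The share of all genes that changed as much was not determined. By FPKM, the 3 hemin libraries lay wholly above or below the 3 vehicle libraries for 14 of the 31 genes, against 49.1% of all genes tested. The hemin libraries were above in 10 of the 31 genes, against 21.5% of all genes tested, and below in 4 of the 31, against 27.5%.

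**Figure D1:**
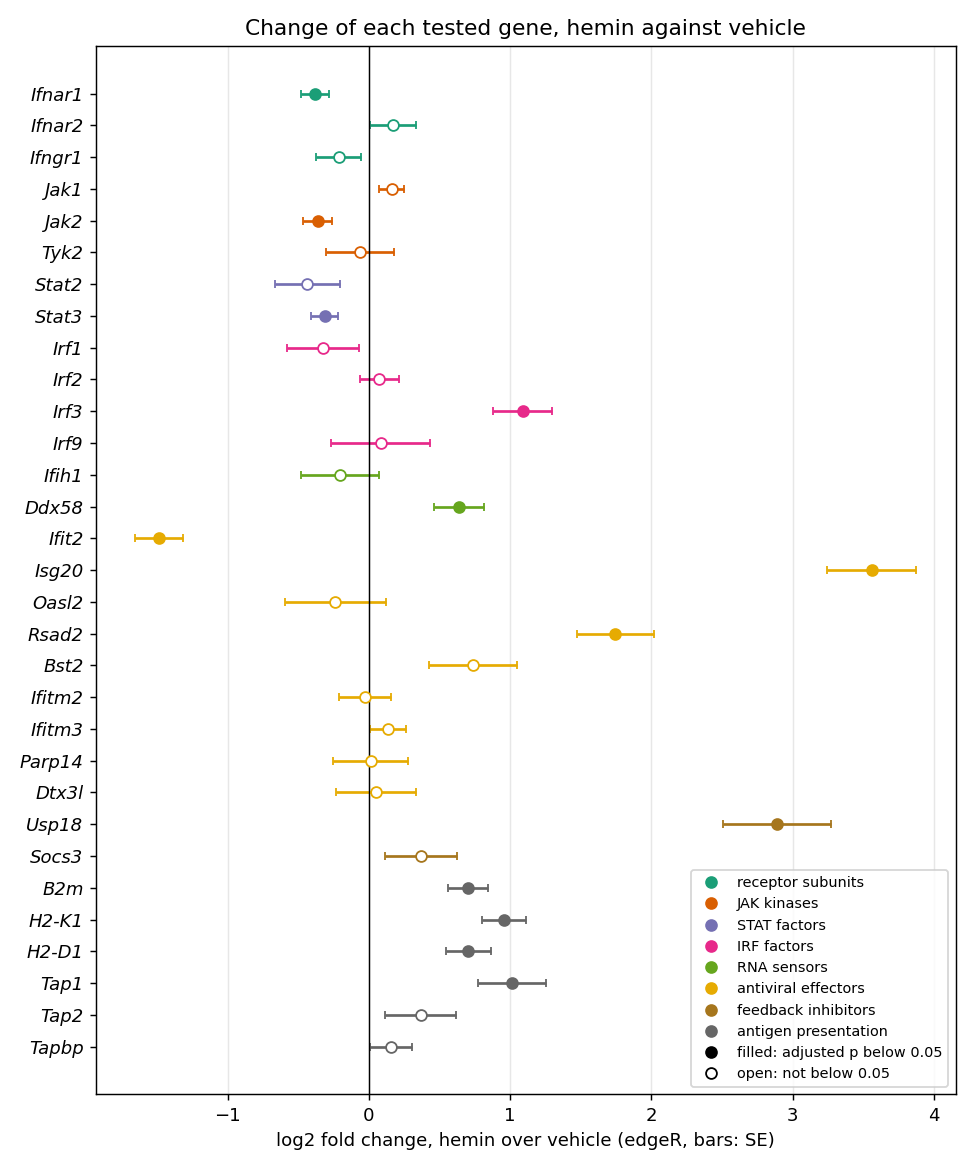
Log2 fold change of hemin over vehicle for the 31 tested genes, from edgeR, with bars of 1 SE and colours by role in the pathway. Filled points passed an adjusted p of 0.05: Isg20 lies farthest right at 3.56 and Ifit2 farthest left at -1.48, and all 6 antigen presentation genes lie right of 0, with 4 of them filled.

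Among the receptor subunits, only Ifnar1 passed the test. Ifnar1, the low-affinity chain of the type I receptor that docks Tyk2, had 10.5, 9.83 and 9.81 FPKM in hemin replicates 1 to 3, against 12.8, 14.5 and 13.4 FPKM in vehicle replicates 1 to 3. The groups did not overlap, and the log2 fold change was -0.38 ± 0.10 (SE, adjusted p = 0.0239), a 1.3-fold lower level with hemin. That call was lost without hemin replicate 2 (adjusted p = 0.0792) or 3 (0.0614), without vehicle replicate 1 (0.053), 2 (0.11) or 3 (0.0665), and when replicate number entered the fit as a block (0.0518). Ifnar2, the high-affinity chain that docks Jak1, averaged 16.6 ± 4.01 FPKM with hemin and 14.4 ± 1.05 FPKM with vehicle (SD, n = 3 each), and Ifngr1, the ligand-binding chain for interferon gamma, averaged 7.98 ± 0.781 and 9.62 ± 0.920 FPKM in the same order. Neither passed the test (adjusted p = 0.458 for Ifnar2 and 0.347 for Ifngr1). Both transcripts of Ifnar2 were listed in all 6 libraries. Its shorter transcript of 1169 nucleotides took 73.9, 77.9 and 82.3% of the gene's FPKM with hemin and 75.1, 72.9 and 74.6% with vehicle, so the groups overlapped.

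Of the 3 kinases, 1 passed the test, at a lower level with hemin. Jak2, which serves the interferon gamma receptor and many cytokine receptors, had 15.4, 16.8 and 15.8 FPKM with hemin, against 20.8, 23.7 and 19.2 FPKM with vehicle. All hemin libraries were below all vehicle libraries (log2 fold change -0.36 ± 0.10, SE, adjusted p = 0.0325). Jak1, the kinase shared by type I and type II receptors, stood at 24.5, 23.5 and 23.7 FPKM with hemin and at 21.99, 23.4 and 21.1 FPKM with vehicle. Its hemin libraries were all higher, but by only 0.16 ± 0.09 on the log2 scale, and Jak1 did not pass the test (adjusted p = 0.200). Tyk2, the partner of Ifnar1, averaged 2.05 ± 0.452 FPKM with hemin and 2.23 ± 0.370 FPKM with vehicle (adjusted p = 0.871). The Jak2 call was lost without hemin replicate 2 (adjusted p = 0.0669) or 3 (0.0787) and without vehicle replicate 1 (0.0954) or 2 (0.153).

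Stat3, the STAT activated mainly by gp130 cytokines such as interleukin 6, was the more abundant of both STATs. It had 28.9, 32.1 and 35.4 FPKM with hemin, against 38.9, 45 and 39.65 FPKM with vehicle. The groups did not overlap, with a log2 fold change of -0.31 ± 0.10 (SE, adjusted p = 0.0437). Without hemin replicate 1 or 2, the adjusted p of Stat3 was 0.0584 or 0.117, without vehicle replicate 1, 2 or 3 it was 0.0968, 0.208 or 0.105, and with the replicate block it was 0.0598. Stat3 shares exon positions with Stat5a on the opposite strand, which stayed at or under 0.370 FPKM in all 6 libraries. Stat2, the STAT found only in type I and III signalling, averaged 2.96 ± 0.285 FPKM with hemin and 4.16 ± 1.12 FPKM with vehicle and did not pass (log2 fold change -0.43, adjusted p = 0.186). Stat2 in vehicle replicate 3 (2.89 FPKM) lay within the range of the hemin libraries, while the other vehicle libraries (4.56 and 5.03 FPKM) were above it.

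Irf3 was the one IRF gene that passed. It had 5.57, 7.31 and 6.16 FPKM with hemin, against 2.93, 3.84 and 2.69 FPKM with vehicle. Every hemin library was above every vehicle library, with a log2 fold change of 1.09 ± 0.21 (SE, adjusted p = 0.00757), a 2.13-fold higher level. A longer non-coding transcript of 2211 nucleotides took 31.4, 43.5 and 50.8% of the Irf3 FPKM with hemin and 0, 31.8 and 28.6% with vehicle. The 2053-nucleotide transcript had 3.82, 4.13 and 3.03 FPKM with hemin and 2.93, 2.62 and 1.92 FPKM with vehicle. Irf3 shares exon positions with Bcl2l12 on the opposite strand, and strand use is not given in the sources available, so reads from the overlap cannot be assigned. Bcl2l12 itself had 4.39, 5.54 and 3.52 FPKM with hemin and 2.95, 2.41 and 2.37 FPKM with vehicle (log2 fold change 0.85, adjusted p = 0.0513), and its part in the Irf3 value was not tested. Irf1, which is induced through GAS sites, averaged 3.20 ± 0.999 FPKM with hemin and 4.15 ± 0.586 FPKM with vehicle. Irf2, which competes with Irf1 for its sites, averaged 10.5 ± 1.23 and 10.3 ± 1.01 FPKM, and Irf9, the DNA-binding part of ISGF3, 1.18 ± 0.243 and 1.13 ± 0.421 FPKM, with hemin and vehicle in that order. None of these 3 passed (adjusted p = 0.369 for Irf1, 0.722 for Irf2 and 0.883 for Irf9). Irf7, the factor that amplifies the interferon alpha genes, was too low to test, with 5, 3 and 9 counts with hemin and 2, 4 and 1 with vehicle.

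The cytosolic RNA sensors were low. Ddx58, which encodes RIG-I, had 2.45, 3.05 and 2.94 FPKM with hemin, against 2.07, 1.99 and 1.55 FPKM with vehicle. The groups did not overlap and the log2 fold change was 0.64 ± 0.18 (SE, adjusted p = 0.0294). The Ddx58 call held under 3 of 13 alternatives and was otherwise lost, with adjusted p-values up to 0.0896. Among these were the fits without hemin replicate 2 (0.0896) or 3 (0.0655) and without vehicle replicate 1 (0.0588), 2 (0.0733) or 3 (0.0777), totals alone (0.0517) and limma on log2(FPKM + 1) (0.062). Ifih1, which encodes MDA5, averaged 0.473 ± 0.0862 FPKM with hemin and 0.557 ± 0.0874 FPKM with vehicle (adjusted p = 0.617). Dhx58, which encodes LGP2, was too low to test, with 6, 16 and 16 counts with hemin and 9, 7 and 5 with vehicle.

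**Figure D2:**
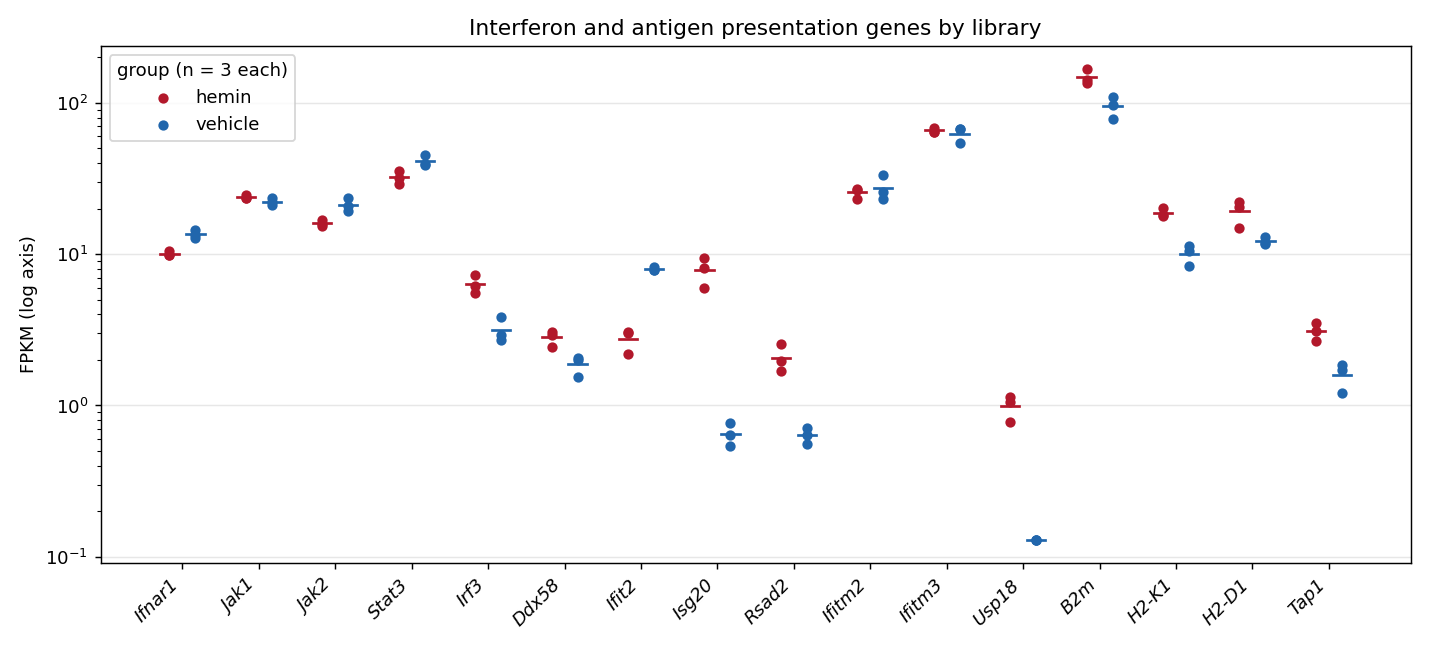
FPKM on a log axis in each library for the 16 genes that passed the test or averaged at least 20 FPKM in a group, with points for libraries, short lines for group means and n = 3 per group. The groups are apart for the 13 called genes and for Jak1, and they overlap for Ifitm2 and Ifitm3, while B2m is the most abundant gene, at 136 to 166 FPKM with hemin and 78.65 to 109 FPKM with vehicle.

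The antiviral effectors gave the greatest changes in both directions. Isg20, a 3′ to 5′ exonuclease that degrades viral RNA, had 9.44, 5.99 and 8.05 FPKM with hemin, against 0.770, 0.640 and 0.540 FPKM with vehicle. The lowest hemin library was far above the highest vehicle library, and the log2 fold change was 3.56 ± 0.32 (SE, adjusted p = 0.000502), an 11.8-fold higher level. These levels rest on 82, 53 and 72 counts with hemin and 7, 6 and 5 counts with vehicle, and the ratio of the summed counts was 11.3 with a 95% exact interval of 6.94 to 19.4 that covers counting error only. Rsad2, or viperin, makes a chain-terminating nucleotide that blocks viral polymerases. It had 2.54, 1.96 and 1.68 FPKM with hemin, against 0.560, 0.710 and 0.640 FPKM with vehicle. All hemin libraries were higher (log2 fold change 1.74 ± 0.27, SE, adjusted p = 0.00351), on 87, 66 and 56 counts with hemin and 19, 24 and 22 with vehicle.

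Ifit2 went the other way. It encodes an RNA-binding protein that restrains viral translation and is commonly induced together with Ifit1 and Ifit3, its neighbours in the Ifit cluster of chromosome 19. Ifit2 had 3.07, 2.19 and 3.01 FPKM with hemin, against 8.22, 7.91 and 7.87 FPKM with vehicle. The vehicle libraries were close to each other and all above the hemin libraries (log2 fold change -1.48 ± 0.17, SE, adjusted p = 0.00121), a 2.8-fold lower level with hemin. Its 2 relatives were near 0 in both groups and were not tested. Ifit1 had 6, 0 and 4 counts with hemin and 4, 1 and 2 with vehicle, and Ifit3 had 7, 11 and 6 counts with hemin and 10, 6 and 6 with vehicle. Ifit3 has a near-identical copy, Ifit3b, and the authors' counting could have divided reads between them. In the promoter windows, Ifit1 and Ifit3 each held 3 ISRE cores and Ifit2 held none. Sites outside these windows, or with other letters, were not searched, so Ifit2 may still have such an element.

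The most abundant effectors did not pass the test. Ifitm3, a membrane protein that blocks virus entry, had 68.7, 64.3 and 64.2 FPKM with hemin and 67.1, 66.7 and 54.1 FPKM with vehicle (log2 fold change 0.14 ± 0.13, SE, adjusted p = 0.457). Its relative Ifitm2 had 26.9, 23.2 and 26.7 FPKM with hemin and 33.4, 25.6 and 23.1 FPKM with vehicle (log2 fold change -0.03 ± 0.19, SE, adjusted p = 0.926). Both genes overlapped between the groups, and reads could be split between these similar sequences. Bst2, or tetherin, which holds budding virus at the membrane, averaged 3.45 ± 0.577 FPKM with hemin and 2.15 ± 0.624 FPKM with vehicle (log2 fold change 0.74, adjusted p = 0.113). Oasl2, an oligoadenylate synthetase-like protein, and the ADP-ribosylation partners Parp14 and Dtx3l had log2 fold changes of -0.24, 0.01 and 0.05, with adjusted p-values from 0.650 to 0.978. The sign of the Parp14 and Dtx3l values turned under several settings, totals alone among them (-0.08 and -0.05).

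Genes that are widely read as the first sign of an interferon response were among the lowest. Isg15, a ubiquitin-like protein that is attached to other proteins, had 10, 1 and 4 counts with hemin and 4, 3 and 3 counts with vehicle, so hemin replicate 1 alone stood above the rest. Xaf1, a pro-apoptotic interferon-induced gene, had 9, 6 and 7 counts with hemin and 0, 2 and 3 with vehicle. Its hemin libraries were all higher, and without the filter on low counts its adjusted p was 0.0766. Over the 7 untested genes (Irf7, Dhx58, Ifit1, Ifit3, Isg15, Xaf1 and Socs1), counts ran from 0 to 16 per library and the highest level was 1.75 FPKM, so small changes were not detectable at this depth. In all, 16 of the 38 genes averaged at least 5 FPKM in either group.

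The feedback inhibitors included a marked rise. Usp18, the protease that removes Isg15 from proteins and blocks signalling at Ifnar2, had 0.780, 1.06 and 1.14 FPKM with hemin, against 0.130 FPKM in each vehicle library. Every hemin library was higher, with a log2 fold change of 2.89 ± 0.38 (SE, adjusted p = 0.00195). The counts were 12, 16 and 17 with hemin and 2 in each vehicle library, and the ratio of summed counts was 7.34 with a 95% exact interval of 3.12 to 21.0 for counting error. At these counts, Usp18 passed the filter on low counts through the hemin group alone. Usp18 shares exon positions with Gm44148, which was not analysed here. On the log2(FPKM + 1) scale, which understates changes of low genes, the log2 fold change of Usp18 was 0.81, and that of Rsad2 was 0.89. Socs1, which inhibits JAK kinases downstream of interferon receptors, had 10, 13 and 13 counts with hemin and 4, 3 and 7 counts with vehicle. It was under the filter, and its adjusted p without the filter was 0.0577. Socs3, the inhibitor of gp130 signalling, averaged 3.43 ± 1.14 FPKM with hemin and 2.73 ± 0.329 FPKM with vehicle (log2 fold change 0.37, adjusted p = 0.309).

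In class I antigen presentation, 4 of the 6 genes were higher with hemin (66.7%, against 16.2% of all genes) and 0 were lower (against 15.7%), with a median log2 fold change of 0.70. B2m, the light chain shared by all class I molecules, had 141, 166 and 136 FPKM with hemin, against 109, 97.0 and 78.65 FPKM with vehicle. All hemin libraries were higher (log2 fold change 0.70 ± 0.14, SE, adjusted p = 0.00873). H2-K1, a classical class I heavy chain, had 17.9, 20.3 and 18.1 FPKM with hemin, against 11.4, 10.4 and 8.31 FPKM with vehicle. Its groups did not overlap either (log2 fold change 0.96 ± 0.15, SE, adjusted p = 0.00402), a 1.94-fold higher level. H2-D1, the second classical heavy chain, had 15.0, 20.6 and 22.1 FPKM with hemin, against 13.1, 11.9 and 11.6 FPKM with vehicle. The lowest hemin library, replicate 1, was only just above the highest vehicle library (log2 fold change 0.71 ± 0.16, SE, adjusted p = 0.0138), and the call was lost without vehicle replicate 2 (adjusted p = 0.0569). H2-K1 and H2-D1 are near-identical in parts, so reads could be divided between them and other class I genes.

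Of the genes that load peptides, Tap1 passed the test and Tap2 and Tapbp did not. Tap1, which with Tap2 forms the pump that loads peptides into the endoplasmic reticulum, had 3.52, 2.67 and 3.11 FPKM with hemin, against 1.85, 1.72 and 1.21 FPKM with vehicle. All hemin libraries were higher (log2 fold change 1.01 ± 0.24, SE, adjusted p = 0.0176). Tap2 averaged 2.39 ± 0.582 FPKM with hemin and 1.92 ± 0.199 FPKM with vehicle, and Tapbp, or tapasin, which bridges the transporter to class I molecules, averaged 5.82 ± 0.491 and 5.39 ± 0.406 FPKM in the same order. Their adjusted p-values were 0.300 for Tap2 and 0.456 for Tapbp. Whether Tap1 changed more than Tap2 was not tested. Tap1 shares exon positions with Psmb9 on the opposite strand, which had 0.320, 1.48 and 0.990 FPKM with hemin and 0.490, 0.980 and 0.160 FPKM with vehicle.

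Microglia and macrophages carry much class I mRNA, and the sum of their markers was also higher with hemin. The 16 microglia and macrophage markers summed to 74.2, 69.9 and 75.5 FPKM in hemin replicates 1 to 3, against 52.1, 35.6 and 43.5 FPKM in vehicle replicates 1 to 3. Of the 13 tested, 4 were called higher (30.8%, against 16.2% of all genes) and 0 lower (against 15.7%), with a median log2 fold change of 0.77. None of the 16 was at 0 in a hemin library, whereas Tmem119 was at 0 in vehicle replicates 1 and 2 and P2ry12 in vehicle replicates 1 and 3. Neither of these genes was tested. Tmem119 had only 5, 3 and 5 counts with hemin, and P2ry12 had 17 counts in vehicle replicate 2, against 6, 7 and 22 with hemin. The 6 antigen presentation genes summed to 186, 217 and 189 FPKM in hemin replicates 1 to 3, against 142, 128 and 107 FPKM in vehicle replicates 1 to 3. B2m made up most of these sums, with 141, 166 and 136 FPKM with hemin and 109, 97.0 and 78.65 FPKM with vehicle. In the hemin group, replicate 2 had the highest antigen presentation sum, as it had for B2m, and the lowest microglia and macrophage sum. H2-K1 was also highest in hemin replicate 2, while H2-D1, Tap2 and Tapbp were highest in replicate 3 and Tap1 in replicate 1. Vehicle replicate 1 was highest in both sums, while replicate 3 was lowest for antigen presentation and replicate 2 for the markers. The 8 astrocyte markers summed to 380 to 514 FPKM with hemin and 459 to 550 FPKM with vehicle, with 1 called higher and 3 lower. The 8 neuronal markers summed to 98.7 to 138 and 175 to 205 FPKM (1 higher, 2 lower), and the 8 endothelial and mural markers to 13.3 to 16.2 and 20.4 to 28.7 FPKM (3 higher and 1 lower of 6 tested), with hemin and vehicle in that order. The lower endothelial and mural sum rests on Cspg4, which is also in the OPC list. Without it the sum was 6.13 to 10.6 FPKM with hemin and 2.73 to 5.41 FPKM with vehicle, an alternative chosen after seeing the data. The 3 genes of that list called higher, named after their values were seen, were Pecam1 (15.8-fold), Tek (12.6-fold) and Kdr (4.82-fold). Vehicle counts by replicate were 4, 5 and 4 for Pecam1, 2, 2 and 1 for Tek, and 10, 5 and 11 for Kdr. Rgs5 and Pdgfrb were not called (log2 fold change -0.04 and 0.54), and Cldn5 and Cdh5 were too low to test. The part of other cell types in the class I values was not tested.

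**Figure D3:**
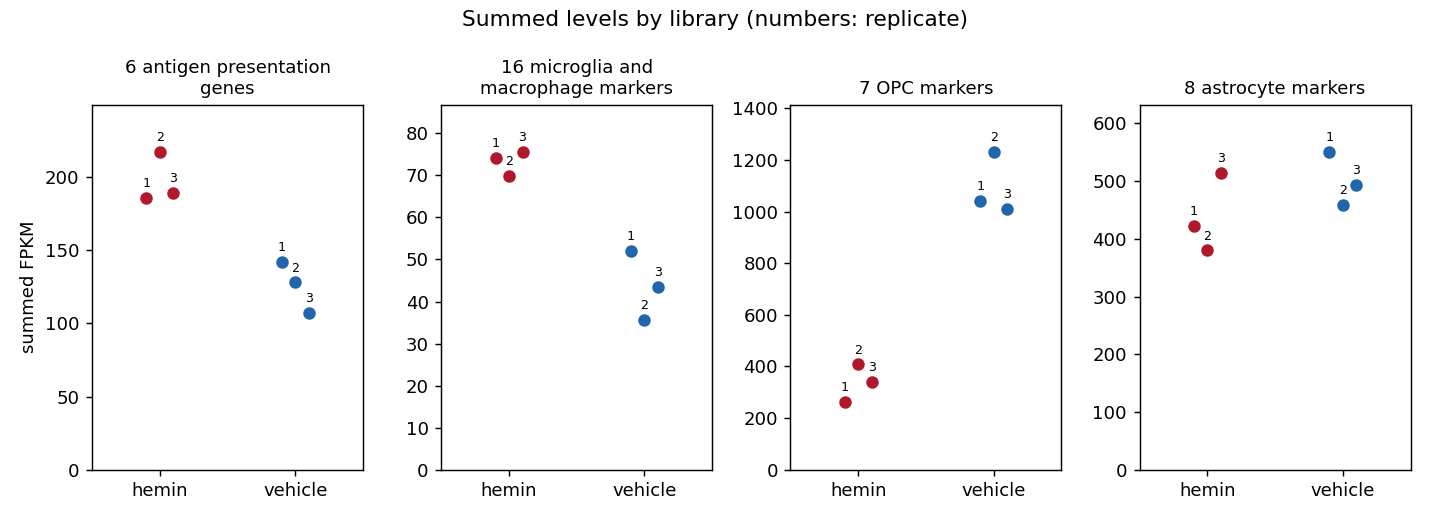
Summed FPKM per library for the 6 antigen presentation genes and for markers of microglia and macrophages, OPCs and astrocytes, with hemin left, vehicle right and numbers giving the replicate. The antigen presentation sum (186 to 217 FPKM with hemin, 107 to 142 FPKM with vehicle) and the microglia and macrophage sum (69.9 to 75.5 and 35.6 to 52.1 FPKM) are higher with hemin, the OPC sum (264 to 408 and 1010 to 1230 FPKM) is lower, and the astrocyte sums overlap.

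Transcript use could be followed in 14 of the 38 genes, which had several listed transcripts. In Isg20, the transcript of 907 nucleotides took 42.3, 23.5 and 19.3% of the gene's FPKM with hemin and was listed in none of the vehicle libraries. The 1098-nucleotide transcript took 16, 36.9 and 33.9% with hemin and 63.6, 54.7 and 70.4% with vehicle, so its share was lower in each hemin library. With only 5 to 7 Isg20 counts per vehicle library, these vehicle shares are imprecise. The estimated split jumped between libraries of a group for Jak2, whose 4972-nucleotide transcript took 1.04, 0 and 50.2% with hemin and 13.0, 0 and 0% with vehicle. The same was seen for Irf9 and Ifih1, so gene sums and not transcripts were tested.

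**Figure D4:**
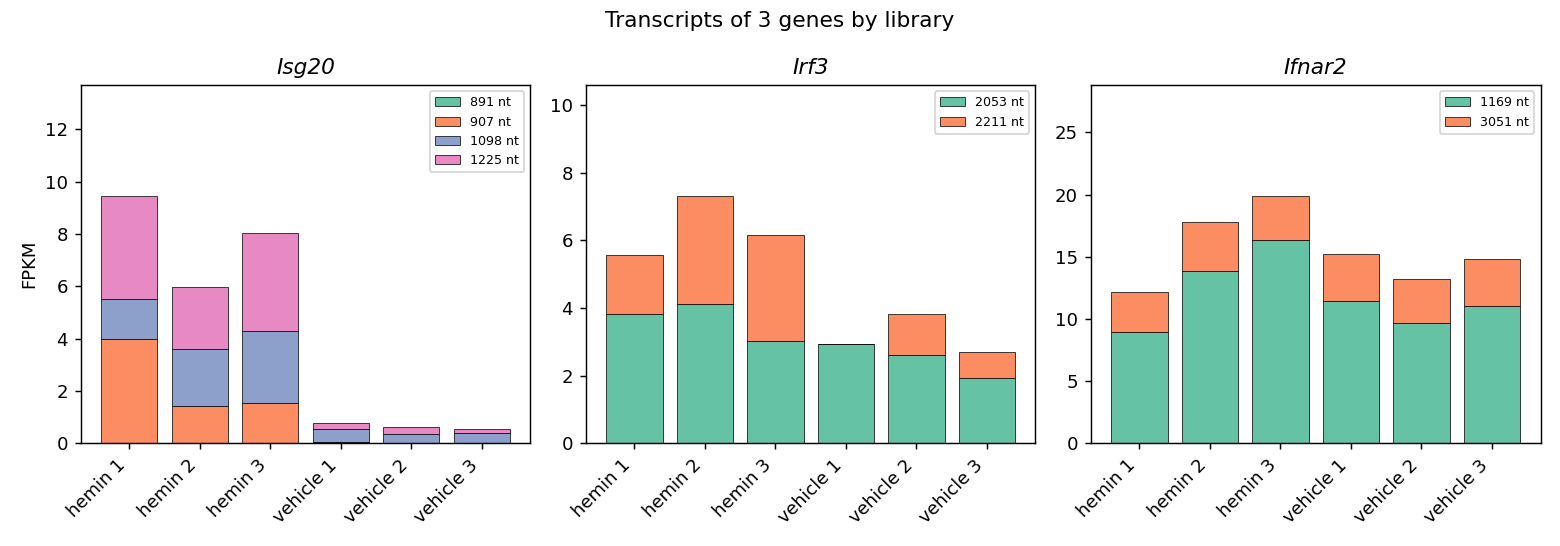
FPKM of each annotated transcript, named by its length in nucleotides, stacked per library for Isg20, Irf3 and Ifnar2, with hemin libraries left of vehicle libraries. The 907-nucleotide transcript of Isg20 appears in the 3 hemin libraries and in none of the vehicle libraries, and the 2211-nucleotide transcript of Irf3 is at 0 in vehicle replicate 1.

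Other genes of the pathway were read from 7 lists of 130 genes outside the 39. Of these, 121 had a row and 81 were tested, of which 21 were called higher (25.9%, against 16.2% of all genes) and 6 lower (7.41%, against 15.7%), with a median log2 fold change of 0.27. Of the 27 calls, 9 held under all 13 alternatives: Cmpk2, Cntf, Cxcl10, Il11, Il6ra, Lif, Mx2, Slfn5 and Tbk1. Without vehicle replicate 1 the lists had 12 calls, and without vehicle replicate 2 they had 13. Leaving out these libraries also lowered the calls over all genes to 2597 and 2551.

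The ligands themselves were barely detected. Of 12 ligand and lambda receptor genes, 8 were not analysed here for want of a row, and Il10rb, the shared chain of the lambda receptor, was the only one tested (log2 fold change 0.02, adjusted p = 0.968). Ifna2 had 1 count in each hemin library and 0 in each vehicle library, and Ifnk had 1 count in hemin replicate 2 alone. Of the 10 tested receptor, JAK-STAT and IRF genes outside the 39, none was higher (against 16.2% of all genes) and 2 were lower (20%, near the 15.7% of all genes). Irf2bp1, a corepressor that binds Irf2, had 6.95, 6.42 and 7.11 FPKM with hemin, against 9.77, 10.5 and 10.9 FPKM with vehicle. All hemin libraries were below all vehicle libraries (log2 fold change -0.55 ± 0.13, SE, adjusted p = 0.0153). The Irf2bp1 call was lost without hemin replicate 2 (adjusted p = 0.0534) and without vehicle replicate 2 (0.065) or 3 (0.0561). Ifngr2, the most abundant of this list, did not pass (log2 fold change -0.23, adjusted p = 0.270).

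Of 12 tested nucleic acid sensing genes, 4 were higher (33.3%, against 16.2% of all genes) and 0 lower (against 15.7%). Tbk1, the kinase that phosphorylates Irf3, had 20.1, 21.0 and 17.6 FPKM with hemin, against 10.1, 11.1 and 10.9 FPKM with vehicle. Its hemin libraries were all well above the vehicle libraries (log2 fold change 0.93 ± 0.12, SE, adjusted p = 0.00196). Ifi204, a DNA-binding interferon-induced protein, Ticam1, the adaptor TRIF of Toll-like receptor 3, and Cgas, the DNA sensor that makes cyclic GMP-AMP, had log2 fold changes of 2.47, 0.84 and 0.91 (adjusted p = 0.0229, 0.0336 and 0.0476). These 3 calls were lost under between 3 and 10 of the 13 alternatives, with adjusted p-values up to 0.0773, 0.0805 and 0.104 in that order.

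Of 20 other interferon-induced genes tested, 4 were higher (20%) and 2 lower (10%), near the 16.2% and 15.7% of all genes, and 19 more had rows but too few counts to test. Cxcl10, a chemokine that attracts T cells, had 13.4, 18.7 and 17.55 FPKM with hemin, against 0.560, 0.550 and 0.440 FPKM with vehicle. That is a 32.5-fold higher level (log2 fold change 5.02 ± 0.25, SE, adjusted p = 0.000162), against 11.8-fold for Isg20. The Cxcl10 counts were 123, 168 and 157 with hemin and only 5, 5 and 4 with vehicle, so the size of its fold is imprecise. Whether Cxcl10 changed more than Isg20 was not tested. Mx2, a dynamin-like antiviral GTPase, had 2.00, 1.85 and 1.63 FPKM with hemin, against 0.470, 0.560 and 0.370 FPKM with vehicle (log2 fold change 2.00, adjusted p = 0.00276). Slfn5, a Schlafen family member, had a log2 fold change of 2.14 (adjusted p = 0.0027). Tor3a, chosen after its value was seen because few genes of the list passed, had one of 0.80 (adjusted p = 0.0336). Cmpk2, a mitochondrial nucleotide kinase next to Rsad2 on chromosome 12 that makes the substrate of viperin, had 1.38, 0.740 and 1.00 FPKM with hemin, against 3.13, 2.76 and 2.77 FPKM with vehicle. Its log2 fold change was -1.41 ± 0.28 (SE, adjusted p = 0.00859), opposite in sign to that of Rsad2. Samhd1, which depletes nucleotides and was also chosen after its value was seen, had a log2 fold change of -0.48 (adjusted p = 0.0229). The calls of Tor3a and Samhd1 were lost when each vehicle library in turn was left out, with adjusted p-values up to 0.104 and 0.0913.

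Of 12 other antigen presentation genes tested, 4 were higher (33.3%, against 16.2% of all genes) and 0 lower (against 15.7%). H2-Q4, a non-classical class I heavy chain, had 3.73, 3.86 and 5.63 FPKM with hemin, against 1.72, 2.69 and 1.62 FPKM with vehicle (log2 fold change 1.19 ± 0.29, SE, adjusted p = 0.0185). Nlrc5, the transactivator of class I genes, had 0.580, 0.330 and 0.400 FPKM with hemin, against 0.110, 0.200 and 0.05 FPKM with vehicle (log2 fold change 1.90 ± 0.50, SE, adjusted p = 0.0252). Cd1d1, which presents lipids, and Canx, the chaperone calnexin that holds new heavy chains, had log2 fold changes of 0.70 and 0.33 (adjusted p = 0.0271 and 0.0323). Calr, the chaperone calreticulin and the most abundant of the list, had 257, 301 and 327 FPKM with hemin and 329, 304 and 312 FPKM with vehicle and did not pass (adjusted p = 0.743). Each of these 4 calls was lost without vehicle replicate 1 and without vehicle replicate 3, with adjusted p-values from any alternative of up to 0.0669 for H2-Q4, 0.0823 for Nlrc5, 0.0853 for Cd1d1 and 0.118 for Canx. Psmb8, an immunoproteasome subunit beside Tap1 and named after its value was seen, did not pass (log2 fold change 0.33, adjusted p = 0.647).

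All 15 listed JAK-STAT inhibitors outside the 39 were tested, and 5 were higher (33.3%, against 16.2% of all genes) and 2 lower (13.3%, near the 15.7% of all genes). Sh2b3, the adaptor LNK that restrains Jak2, had 13.3, 6.68 and 6.71 FPKM with hemin, against 3.72, 2.66 and 3.99 FPKM with vehicle (log2 fold change 1.42 ± 0.33, SE, adjusted p = 0.0153), with hemin replicate 1 the highest. Its adjusted p was 0.0519 without vehicle replicate 2. Socs6, a SOCS family member, and the phosphatases Ptpn1 and Ptpn2, which dephosphorylate JAKs and STATs, had log2 fold changes of 0.92, 0.46 and 0.38 (adjusted p = 0.0178, 0.0194 and 0.0327). Ptpn6, the phosphatase SHP-1 of blood cells, chosen after its value was seen, had one of 1.36 (adjusted p = 0.0423). Ptpn11, the phosphatase SHP-2 and the most abundant of the list, had 29.45, 24.1 and 21.8 FPKM with hemin, against 34.4, 36.4 and 37.1 FPKM with vehicle (log2 fold change -0.46 ± 0.14, SE, adjusted p = 0.0399). Pias3, an inhibitor of Stat3 that was also chosen after its value was seen, had a log2 fold change of -1.02 (adjusted p = 0.0432). Leaving out vehicle replicate 1 or 2 ended the calls of Socs6, Ptpn1, Ptpn2, Ptpn6, Ptpn11 and Pias3, with adjusted p-values from any alternative of up to 0.0651, 0.073, 0.121, 0.15, 0.12 and 0.123 in that order.

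Upstream of Stat3, 4 of 11 tested gp130 ligands and receptors were higher (36.4%, against 16.2% of all genes) and 0 lower (against 15.7%), with a median log2 fold change of 0.83. Il11 and Lif, both ligands that signal through gp130, had 2.36, 2.70 and 1.51 FPKM (Il11) and 1.97, 1.75 and 1.93 FPKM (Lif) with hemin. With vehicle, Il11 had 0.190, 0.240 and 0.180 FPKM and Lif had 0.600, 0.330 and 0.780 FPKM. Both sets of hemin libraries were wholly above their vehicle libraries (log2 fold change 3.47 ± 0.39 for Il11 and 1.77 ± 0.33 for Lif, SE, adjusted p = 0.00108 and 0.00718). The Il11 levels rest on 40, 45 and 25 counts with hemin and only 3, 4 and 3 with vehicle. Il6ra, the interleukin 6 receptor chain, and Cntf, ciliary neurotrophic factor, had log2 fold changes of 2.57 and 1.51 (adjusted p = 0.0116 and 0.0117). Il6st, which encodes gp130 itself, had 24.5, 17.0 and 16.5 FPKM with hemin and 17.3, 15.1 and 16.2 FPKM with vehicle and did not pass (adjusted p = 0.223).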

How the data were processed

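RNA-seq tables of 3 hemin and 3 vehicle OPC samples, grouped by their titles, were used. Per the submitters' processing notes the tools were Bowtie 0.12.2 and RSEM. These notes name the builds mm8 and mm9 without a role, so no coordinates were taken from the tables. Per the file headers, the authors deposited expected counts, estimates per transcript that are not scaled for depth, and FPKM, scaled by transcript length and library size. The annotation release, read filters and strand use were not given in the sources used here. Tables of unannotated features were not used.

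Expected counts and FPKM of 26421 transcripts were summed to 18743 genes, with a gene absent from a table set to 0, and 18711 identifiers matched a RefSeq symbol (GRCm38.p6). Counts were rounded. In R 4.3.3, edgeR 4.0.16 (filterByExpr, TMM, glmQLFit, glmQLFTest, two-sided, no covariates) tested 12779 genes, with Benjamini-Hochberg adjustment over all of them and calls below 0.05. The filter can be passed through 1 group alone, which favours genes high in that group. The SE is the log2 fold change divided by the square root of F, and the biological coefficient of variation was 0.208. The tests were tried on simulated data. No libraries looked like duplicates: the chi-square of 2 libraries of a group, divided by its degrees of freedom, was between 5.35 and 21.7.

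The genes and lists were chosen with earlier results of these data known. Values in every sample are given for genes that passed or averaged at least 20 FPKM in a group. Of each pathway list, up to 4 passing genes with the smallest p and the gene with the highest mean are named, and genes outside this rule are marked. A gene that the rule selects is not reported here. Promoters came from RefSeq and shared exons from GENCODE vM21. Alternatives were DESeq2 size factors, totals alone, no filter, DESeq2 1.42.0, limma 3.58.1 on log2(FPKM + 1) and log2(FPKM + 0.1), a replicate block, and leaving out each replicate.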

Additional observations from a re-analysis of the deposited data

How the results depend on the processing

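The calls of 8 of the 13 genes (B2m, H2-K1, Ifit2, Irf3, Isg20, Rsad2, Tap1 and Usp18) held under all 13 alternatives. H2-D1, Ddx58, Ifnar1, Jak2 and Stat3 kept theirs under 12, 3, 7, 9 and 7 of the 13 alternatives in that order. Their 27 lost calls came without a change of sign, and the cause was not tested. All 31 tested genes, called or not, had 403 values. Leaving out single libraries gave 8 to 12 calls among the 31 genes (1 to 3 of them lower), against 13 and 4 in full, 12 to 23 among the pathway genes, against 27, and 2551 to 4530 over all genes, against 4077. Genes whose groups do not overlap numbered 15 to 18, against 14. Fewer samples were tested in these fits.

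The labels do not say whether the replicate numbers pair the samples. Same-numbered hemin and vehicle deviations correlated by only 0.063, 0.1 and 0.157, and differently numbered ones by -0.116 to 0.023. Each library correlated best with its own number, so weak pairing was not settled either way. With the replicate block, 3728 genes were called over all, 10 of the 31 genes were called, and 2 of these were lower.

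The called pathway genes lost their call in 81 values. The sign turned in 20 values of 6 of the 31 genes and in 7 values of Il10rb and Calr, and these genes passed in none of the settings compared. With totals alone the log2 fold change was -0.017 for Irf2, -0.0113 for Irf9, -0.0808 for Parp14, -0.0452 for Dtx3l and -0.0738 for Il10rb. Without a filter it was -0.0303 for Parp14 and -0.0255 for Il10rb. With limma it was -0.0124 and -0.0285 for Parp14, -0.0033 and -0.0009 for Dtx3l and -0.0121 and -0.0100 for Il10rb (pseudocounts 1 and 0.1). Leaving out single libraries gave -0.2241 to 0.1219 for Tyk2, -0.169 to 0.4143 for Irf9, -0.1119 to 0.1467 for Ifitm2, -0.1057 to 0.106 for Parp14, -0.1842 to 0.18 for Dtx3l, -0.1244 to 0.2379 for Il10rb and -0.106 to 0.0183 for Calr. Without Cspg4, the hemin minus vehicle difference of the mean endothelial and mural marker sum was 3.5 FPKM, against -10.8 FPKM with it. Depth limits the 7 untested genes, with at most 16 counts per library.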
